A study of Mus musculus with 6 samples.

Results

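The CCN genes encode 6 secreted matricellular proteins, and all 6 (*Ccn1* to *Ccn6*) were found by symbol among the 37384 genes counted in adipocytes of L1L2-FF and L1L2-AKO mice. RNA came from adipocytes floated out of collagenase-digested inguinal subcutaneous white adipose tissue (scWAT) of male mice at postnatal day 7 (P7). L1L2-AKO mice carried floxed alleles of *Lats1* and *Lats2* (*Lats1*f/f*Lats2*f/f) together with *Adipoq*Cre, and L1L2-FF mice carried the same floxed alleles without Cre. The floxed lines were of mixed background that included C57BL/6, and no treatment is named. Each group had 3 libraries, each library was a pool of 4 mice, and the *Adipoq* promoter drives Cre in cells that express *Adipoq*. Other cells that floated with the adipocytes also gave RNA, and whether they carry the deletion was not tested.

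CCN proteins sit in the extracellular matrix without building it, and they bind integrins, heparan sulphate proteoglycans and growth factors. They share an IGF-binding-protein-like module, a von Willebrand factor type C module, a thrombospondin repeat and a C-terminal cystine knot, the last of which CCN5 lacks. *Ccn1* and *Ccn2* are standard readouts of YAP and TAZ, the coactivators that the LATS kinases phosphorylate and hold out of the nucleus, and *Ccn2* is also a TGFβ target linked to fibrosis. *Ccn4*, *Ccn5* and *Ccn6* were first named as Wnt-induced secreted proteins, and *Ccn3* as a gene overexpressed in nephroblastoma.

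*Lats1* was lower in the L1L2-AKO libraries, with 76.1, 94.3 and 78.4 CPM (counts scaled to the TMM-normalized library total) in L1L2-FF against 38.9, 41.2 and 40.5 CPM in L1L2-AKO. *Lats2* went against the label, with 74.9, 85.7 and 68.5 CPM in L1L2-FF against 96.2, 126 and 135 CPM in the libraries labelled L1L2-AKO. By quantitative PCR of scWAT adipocytes isolated at P7, the authors reported lower mRNA of both *Lats1* and *Lats2* in L1L2-AKO. Which exons the Cre removes is not given in the sources used here, and the counts cover whole genes. Total counts ran from 30548473 to 32107917 per library, so depth did not separate the groups. The summed level of 12 mature adipocyte markers was 25865 to 27298 CPM in L1L2-FF and 14703 to 18257 CPM in L1L2-AKO, with 0 of the 12 higher, 5 lower and 7 not past edgeR's threshold. *Adipoq* itself fell from between 1720 and 2396 CPM to between 695 and 1036 CPM, and *Cfd* fell furthest (log2 fold change -4.14). Among those not past the threshold, *Plin4*, *Cidec* and *Lep*, which encode 2 lipid droplet proteins and leptin, had 0.00, -0.01 and 0.41. *Plin1* (-0.65), *Lipe* (-0.58) and *Pnpla2* (-0.62) did not pass either, but their groups did not overlap, with L1L2-AKO lower. Of the 12 markers, 8 had such a gap with L1L2-AKO lower and 0 with it higher, against 18.4% and 18% of all tested genes. By unadjusted edgeR p, 8 were under 0.05, and 8 passed DESeq2's test and 5 limma-voom's. In such bulk samples, fewer cells of a type and less RNA per cell cannot be told apart.

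The 6 genes lie apart in the genome (build GRCm38, also called mm10) and share no 50-base stretch of transcript with each other. *Ccn1* is at chr3:145646976-145649981 on the minus strand, *Ccn2* at chr10:24595442-24598683 on the plus strand, *Ccn3* at chr15:54745702-54754039 on the plus strand, *Ccn4* at chr15:66891320-66923201 on the plus strand, *Ccn5* at chr2:163820861-163833146 on the plus strand and *Ccn6* at chr10:39150970-39163794 on the minus strand. The coding transcript of each has 5 exons, and the coding lengths are 379, 348, 354, 367, 251 and 354 codons in the order *Ccn1* to *Ccn6*, so that *Ccn5* is the shortest. Aligned coding sequences were 59.4% to 66.3% identical between pairs, with *Ccn4* and *Ccn5* at 66.3%. The longest identical run between any 2 members was 18 bases (*Ccn1* and *Ccn2*), and *Ccn5* shared at most 15 bases in a row with another member. No 50-base stretch of a member occurred in another gene's transcripts, except for 1.1% of those of *Ccn3*, which recurred in 8 genes outside the family. The 60 coding bases below are the most alike stretch within 1 exon of *Ccn1*, *Ccn2* and *Ccn5*, in the part that encodes the IGF-binding-protein-like module, and they are printed to show how far apart the 3 genes stay even there. Capitals mark the 37 bases that are identical in all 3. The stretch is chr3:145649333-145649392 on the minus strand (exon 2, coding bases 107 to 166) for *Ccn1*, chr10:24595928-24595987 on the plus strand (exon 2, coding bases 116 to 175) for *Ccn2*, and chr2:163825187-163825246 on the plus strand (exon 3, coding bases 107 to 166) for *Ccn5*.
Ccn1: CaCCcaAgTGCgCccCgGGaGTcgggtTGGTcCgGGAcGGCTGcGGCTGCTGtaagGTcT
Ccn2: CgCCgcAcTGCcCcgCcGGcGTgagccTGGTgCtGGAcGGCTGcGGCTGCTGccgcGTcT
Ccn5: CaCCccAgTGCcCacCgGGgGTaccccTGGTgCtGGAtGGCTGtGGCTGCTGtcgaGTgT

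RefSeq promoter sequences (GRCm38.p6) were at hand for *Ccn1* and *Ccn6*, and not used here for *Ccn2*, *Ccn3*, *Ccn4* and *Ccn5*. The 250 bases before the start of *Ccn1*, chr3:145649986-145650235 on the minus strand, are shown because *Ccn1* is a standard YAP/TAZ target, with capitals for the letters of the TEAD motif (GGAATG, here as CATTCC on the other strand) and of the TATA motif (TATAAA).
Ccn1 promoter: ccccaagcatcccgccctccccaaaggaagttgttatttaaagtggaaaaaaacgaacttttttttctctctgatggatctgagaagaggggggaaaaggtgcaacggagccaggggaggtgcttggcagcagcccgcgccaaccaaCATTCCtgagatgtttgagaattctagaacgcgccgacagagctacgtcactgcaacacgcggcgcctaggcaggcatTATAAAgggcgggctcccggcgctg

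The TEAD letters began 103 bases before the start and the TATA letters 25 bases before it. Searched on both strands, the TEAD letters occur in 12.6% and the TATA letters in 12.4% of the 32851 promoters of the same table. The same window of *Ccn6* (chr10:39163795-39164044, minus strand) held neither, and had 1 match of the SMAD letters CAGAC, 22 bases before the start, which 42.2% of the promoters hold. The AP-1 letters TGANTCA (6.75% of promoters), the TCF/LEF letters CTTTGAT (3.21%) and the CArG box (1.47%) were in neither window. A match is a description of letters and not a bound site.

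The CCN genes did not all move together. Of the 6 members, all 6 passed the filter on low counts, and *Ccn2*, *Ccn4* and *Ccn5* were higher in L1L2-AKO past an adjusted p of 0.05 in edgeR's quasi-likelihood test, 0 were lower, and *Ccn1*, *Ccn3* and *Ccn6* did not pass. Among all 15674 tested genes 16.5% passed in either direction, 9.28% higher and 7.18% lower. The family was selected on this same comparison, by the log2 fold changes and calls of its members, so those calls and fold changes are a description and nothing is read from their number. The same 3 members had no overlap between the groups, with every L1L2-AKO library above every L1L2-FF library, as had 18.0% of all tested genes (36.4% had no overlap in either direction). The median log2 fold change was 1.08 over the 6 members and -0.02 over all tested genes. The p-values of other genes given further on set the difference between the groups against the spread between pools of mice.

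**Figure D1:**
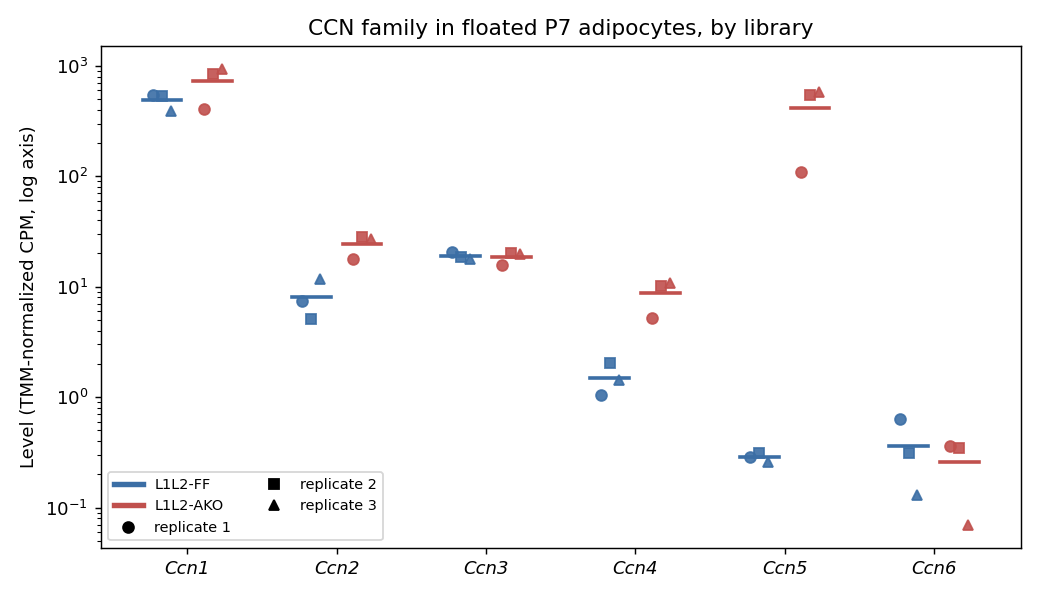
Level of each CCN gene in each library, as CPM normalized by the trimmed mean of M values (TMM), on a log axis. Blue marks L1L2-FF and red L1L2-AKO, symbol shapes mark the replicate and a bar marks the group mean of 3 libraries. *Ccn5* lies near 0.3 CPM in all L1L2-FF libraries and between 109 and 581 CPM in L1L2-AKO, while the groups overlap for *Ccn1*, *Ccn3* and *Ccn6*.

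*Ccn5* went from a level near the limit of counting to one of the more abundant transcripts. Its counts were 9, 10 and 8 in L1L2-FF and 3603, 17259 and 16650 in L1L2-AKO. As CPM these were 0.287, 0.309 and 0.258 (mean 0.285 ± 0.0258, SD, n = 3) against 109, 547 and 581 (412 ± 264, SD, n = 3). The L1L2-FF libraries sat close together, and the L1L2-AKO libraries fell into a low replicate 1 and a high pair. Even so the lowest L1L2-AKO library was 351 times the highest L1L2-FF library. The fitted log2 fold change was 10.48 with a standard error of 0.824, or 1427-fold, and only 2 of the 15674 tested genes had a larger one, which places *Ccn5* at rank 3. Left-out libraries moved the log2 fold change between 10.15 and 10.93.

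*Ccn4*, whose protein is also known as WISP1, was low in both groups, with a gap between them. It measured 1.05, 2.04 and 1.42 CPM in L1L2-FF (1.50 ± 0.499, SD, n = 3) and 5.16, 10.2 and 10.8 CPM in L1L2-AKO (8.70 ± 3.08, SD, n = 3), from 33 to 66 and from 171 to 320 counts. The lowest L1L2-AKO library was 2.53 times the highest L1L2-FF library. The log2 fold change of 2.53 (standard error 0.362, 5.76-fold) ranked 218 among the tested genes, and it stayed between 2.32 and 2.81 with 1 library left out.

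*Ccn2*, formerly connective tissue growth factor, was about 3 times higher. Its values were 7.47, 5.10 and 11.9 CPM in L1L2-FF (8.14 ± 3.43, SD, n = 3) and 17.7, 28.3 and 27.1 CPM in L1L2-AKO (24.4 ± 5.82, SD, n = 3). The groups did not overlap, but the gap was narrow: L1L2-AKO replicate 1 was 1.49 times L1L2-FF replicate 3. The log2 fold change was 1.58 (standard error 0.315, 2.99-fold, rank 523) and ran from 1.33 to 1.95 with 1 library left out. The call held in 3 of 6 such fits and was lost without L1L2-FF replicate 1 (1.51), L1L2-AKO replicate 2 (1.46) or L1L2-AKO replicate 3 (1.50). The antisense gene *Gm15270* overlaps *Ccn2* and had 0 to 5 counts per library.

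*Ccn1*, formerly *Cyr61*, was the most abundant member per length in every library, and its groups overlapped. It measured 542, 535 and 387 CPM in L1L2-FF (488 ± 87.6, SD, n = 3) and 407, 850 and 942 CPM in L1L2-AKO (733 ± 286, SD, n = 3). L1L2-AKO replicates 2 and 3 were above every L1L2-FF library, and replicate 1 was 0.834 times the L1L2-FF mean. The log2 fold change was 0.59 (standard error 0.305, 1.50-fold). Without L1L2-AKO replicate 1 it was 0.88 and past the threshold, and in the 5 other fits with 1 library left out it was not past it.

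The groups overlapped for *Ccn3* and for *Ccn6*. *Ccn3* had 20.6, 18.6 and 18.0 CPM in L1L2-FF (19.1 ± 1.35, SD, n = 3) and 15.8, 20.1 and 19.8 CPM in L1L2-AKO (18.6 ± 2.40, SD, n = 3), and the log2 fold change was -0.04 (standard error 0.142). Its estimates stayed between -0.10 and 0.07 with 1 library left out. *Ccn6* was at the edge of detection, with 20, 10 and 4 counts in L1L2-FF and 12, 11 and 2 counts in L1L2-AKO, or 0.359 ± 0.258 and 0.260 ± 0.165 CPM (SD, n = 3 each). The fitted log2 difference of -0.44 had a standard error of 0.721, so that neither a fall nor a rise was detectable at this depth. *Ccn6* overlaps *Tube1* on the other strand, which had 45 to 109 counts per library. The strand setting of the counting is not given in the sources used here, so reads from exon bases that both genes share cannot be told apart.

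**Figure D2:**
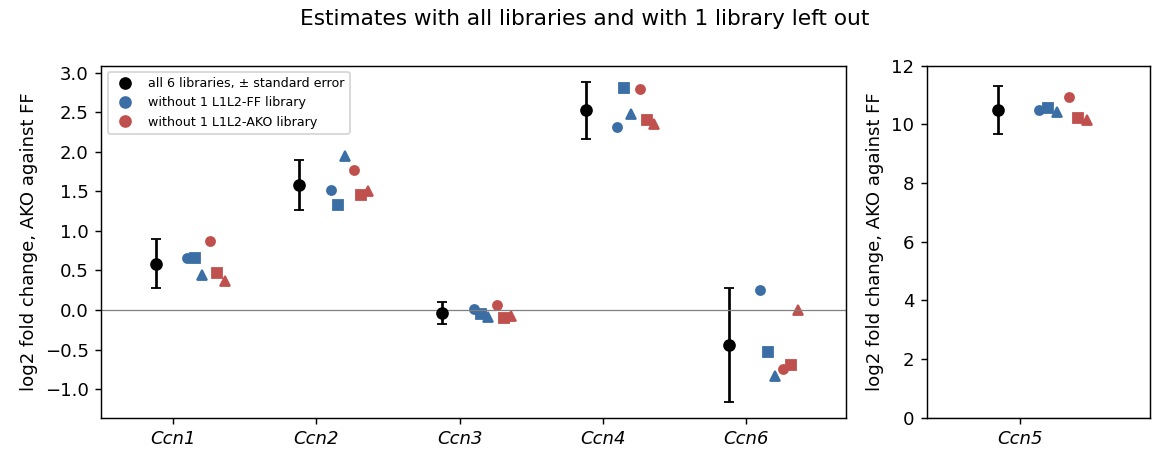
Log2 fold change of L1L2-AKO against L1L2-FF for each CCN gene (y axis), with all 6 libraries (black, ± standard error) and with 1 library left out (blue for an L1L2-FF library, red for an L1L2-AKO library, shapes for the replicate as in the plot of levels by library). *Ccn5* has its own panel and axis and stays between 10.15 and 10.93, whereas the estimates for *Ccn3* and *Ccn6* lie on both sides of 0.

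Levels of different genes were compared per length, as CPM per kb of exon. In L1L2-FF the order was *Ccn1* (241 ± 43.4), *Ccn3* (6.64 ± 0.470), *Ccn2* (2.85 ± 1.20), *Ccn4* (0.270 ± 0.0897), *Ccn6* (0.253 ± 0.182) and *Ccn5* (0.148 ± 0.0134), each as mean ± SD over 3 libraries. The last 3 lay within each other's spread for *Ccn4* and *Ccn6* and for *Ccn6* and *Ccn5*, whereas *Ccn1*, *Ccn3* and *Ccn2* kept their order in every L1L2-FF library. In L1L2-AKO the order was *Ccn1* (363 ± 142), *Ccn5* (214 ± 137), *Ccn2* (8.51 ± 2.03), *Ccn3* (6.47 ± 0.836), *Ccn4* (1.56 ± 0.554) and *Ccn6* (0.183 ± 0.116). There the ranges of *Ccn2* and *Ccn3* overlapped, and those of *Ccn3*, *Ccn4* and *Ccn6* did not. *Ccn5* thus moved from the last place in the family to the second, and from rank 14856 to rank 154 of the 15663 genes with a length. The group ranges of *Ccn1* and *Ccn5* overlapped in L1L2-AKO, yet within each library *Ccn1* was the higher, by 3.56, 1.48 and 1.54 times in replicates 1, 2 and 3.

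Ratios within a library do not depend on its total count, and they changed between the groups. *Ccn1* per length was 1797, 1648 and 1429 times *Ccn5* in the L1L2-FF libraries, against at most 3.56 times in L1L2-AKO. *Ccn2* per length was 0.364, 0.274 and 0.663 times *Ccn3* in L1L2-FF and 1.12, 1.41 and 1.37 times *Ccn3* in L1L2-AKO, so that *Ccn2* was the lower of the pair in every L1L2-FF library and the higher in every L1L2-AKO library. The ratio of *Ccn1* to *Ccn2*, the pair of standard YAP/TAZ readouts, ran from 46.2 to 148 in L1L2-FF and from 32.6 to 49.3 in L1L2-AKO, and the groups overlapped.

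The make-up of the family changed with these levels. *Ccn1* made up 96.2%, 96.7% and 94.6% of the summed level per length in L1L2-FF and 74.4%, 58.1% and 59.3% in L1L2-AKO. The share of *Ccn5* went from 0.0595% (mean of 3 libraries) to 20.9%, 39.3% and 38.4%. The summed level of the 6 members was 279, 274 and 202 CPM per kb in L1L2-FF and 271, 724 and 787 CPM per kb in L1L2-AKO, a ratio of means of 2.36, with replicate 1 inside the L1L2-FF range. Without *Ccn1*, the sums were 10.6, 9.03 and 10.9 against 69.4, 304 and 320 CPM per kb, a ratio of means of 22.8, and the groups did not overlap.

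**Figure D3:**
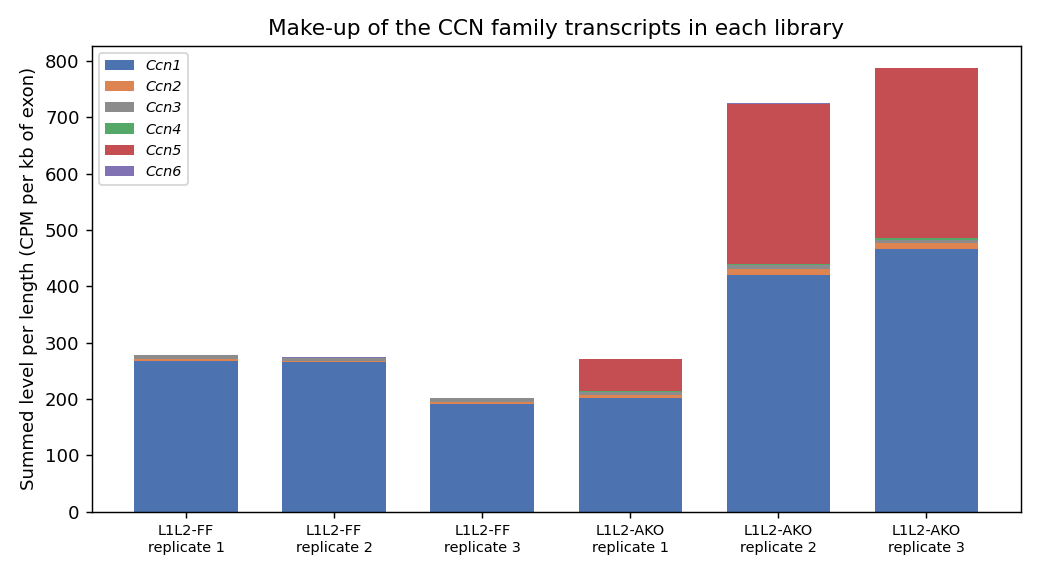
Summed level per length of the 6 CCN genes in each library (y axis, CPM per kb of exon, from 0), stacked by gene. *Ccn1* (blue) fills 94.6% to 96.7% of each L1L2-FF bar, and *Ccn5* (red) fills 20.9% to 39.3% of the L1L2-AKO bars. The bar of L1L2-AKO replicate 1 lies within the range of the L1L2-FF bars, at 271 CPM per kb.

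L1L2-AKO replicate 1 was the lowest of its group for 5 of the 6 members, the exception being *Ccn6*. Relative to the mean of replicates 2 and 3, it stood at 0.193 for *Ccn5*, 0.454 for *Ccn1*, 0.493 for *Ccn4*, 0.638 for *Ccn2* and 0.792 for *Ccn3*. The spread within the group followed, since the highest L1L2-AKO library was 5.35 times the lowest for *Ccn5* and 1.27 times for *Ccn3*. *Ccn5* had a larger dispersion than 96.2% of the tested genes, and *Ccn3* than 28.5%. Replicate 1 was also the lowest L1L2-AKO library for 39.0% of all tested genes and for 61.6% of the 1455 genes that were higher in L1L2-AKO.

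In *Lats1*, replicate 1 was at 38.9 CPM against 41.2 and 40.5 CPM, and in *Lats2* at 96.2 CPM against 126 and 135 CPM. Its summed adipocyte markers, 16278 CPM, lay between the 14703 and 18257 CPM of the others, and its summed macrophage markers, 1015 CPM, between 1111 and 1003 CPM. Its endothelial markers were the highest of the group in 12 of 12 genes (summed 2799 CPM against 2234 and 1295), and its Schwann cell markers the lowest in 9 of 10 (792 CPM against 1443 and 1389). Most of these Schwann cell sums was *Pmp22*, at 603 CPM in replicate 1 and 1005 and 1100 CPM in replicates 2 and 3. The lymphocyte and neutrophil markers of replicate 1 were the lowest in 8 of 8 tested (summed 15.3 CPM against 26.1 and 26.5). The part of these differences in the low CCN levels of replicate 1 was not tested.

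**Figure D4:**
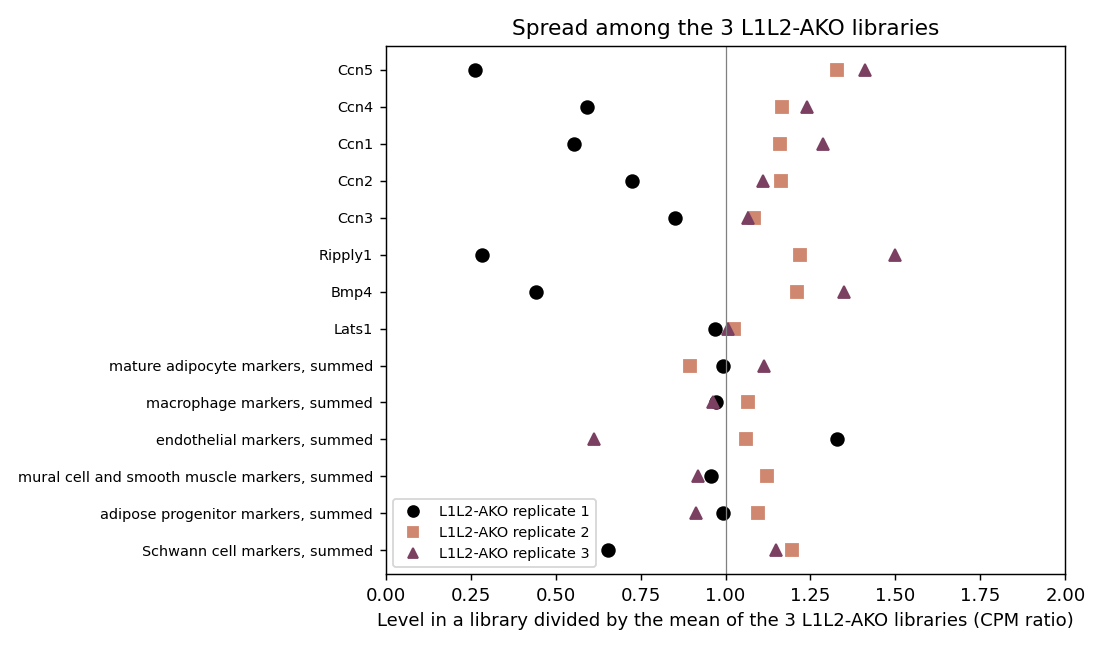
Level in each L1L2-AKO library divided by the mean of the 3 L1L2-AKO libraries (x axis, ratio of CPM, linear from 0), for 5 CCN genes, 3 single genes and the summed markers of 6 cell types. Replicate 1 (black) lies left of 1 for every CCN gene shown, furthest for *Ccn5*, and lies close to 1 for *Lats1*, adipocyte and macrophage markers.

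The genes most like each member were found by Pearson's r of log2 CPM over the 6 libraries, among 12454 genes (12455 for *Ccn6*). The libraries form 2 groups, so a high r can state little more than that both genes differ alike between the groups, and it is given as a description. For *Ccn5* they were *Bmp4*, a BMP ligand (r = 1.00, rounded), *Ripply1*, a transcriptional corepressor (r = 1.00, rounded), and *Atg16l2*, a paralogue of an autophagy gene (r = 0.999). *Bmp4* had 2.30, 2.44 and 2.58 CPM in L1L2-FF and 90.6, 248 and 277 CPM in L1L2-AKO. *Ripply1* was at 0 counts in every L1L2-FF library and at 55.7, 239 and 295 CPM in L1L2-AKO, so that it too was lowest in replicate 1. By the root mean square difference of the log2 values, which also takes account of the size of the change, *Ripply1* was nearest (0.996), followed by the claudin gene *Cldn2* (1.64), *Gm9696* (1.86), *Palm3* (2.39) and the synaptotagmin gene *Syt13* (2.42).

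The genes most like the other members had smaller log2 fold changes than those most like *Ccn5*. *Ccn4* was most like *Ext1*, a glycosyltransferase of heparan sulphate synthesis (r = 0.997, log2 fold change 0.47), *Irak4* (0.996) and *Ctbs* (0.995). *Ccn2* was most like *Nab1*, a corepressor of EGR proteins (r = 0.996), *AC149090.1* (0.995) and the tropomyosin gene *Tpm1* (0.994, log2 fold change 0.78). *Ccn1* was most like *Map3k6* (r = 0.991), *Golph3l* (0.988) and *1600020E01Rik* (0.987). *Ccn3* was most like *Qrich1* (0.973), *Clec2d* (0.970) and *Gm13803* (0.965). *Ccn6* was most like *Klf2* (0.991), *Sh2d3c* (0.989) and *Ccm2l* (0.979), which rests on very few *Ccn6* counts.

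Other target genes of YAP, TAZ and TEAD were counted beside *Ccn1* and *Ccn2*. Of 22 listed, 21 were tested, 11 were higher, 2 were lower and 8 did not pass, with the median of the list at a log2 fold change of 1.22. *Igfbp3*, an IGF-binding protein, rose from 25.0, 43.4 and 26.8 CPM to 173, 620 and 619 CPM (log2 fold change 3.89, adjusted p = 0.0022, edgeR). *Crim1*, a membrane protein with von Willebrand factor C repeats, rose by 1.72 (adjusted p = 0.0050, edgeR) and *Myof*, which encodes myoferlin, by 1.65 (adjusted p = 6.2e-04, edgeR). *Ankrd1* had the largest log2 fold change of the list, 5.25, but at 0.724 to 1.33 CPM in L1L2-AKO. *Nt5e* (-1.36) and *Amotl1* (-0.77) were lower, and *Lats2*, one of the 11, is the targeted gene that went against the label. With 1 library left out, the call of *Amotl1* held in 3 of 6 fits and that of *Lats2* in 2. These counts compare with 9.28% higher and 7.18% lower, and a median of -0.02, over all tested genes. Of the 21, L1L2-AKO replicate 1 was the lowest of its group for 14.

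The coactivators, their DNA-binding partners and the VGLL cofactors did not change alike. Of 10 listed, 8 were tested, 3 were higher and 0 were lower, or 37.5% past the threshold against 16.5% of all tested genes. The list's median log2 fold change was 0.46. *Vgll3*, a TEAD cofactor, rose from 2.11, 4.85 and 3.06 CPM to 55.7, 82.7 and 108 CPM (log2 fold change 4.61, adjusted p = 3.9e-04, edgeR). *Tead1* (1.16, adjusted p = 0.0029) and *Tead3* (0.97, adjusted p = 0.024) were also higher by edgeR's test, the latter in 2 of 6 fits with 1 library left out. *Yap1* (log2 fold change -0.24) and *Wwtr1*, which encodes TAZ (-0.37), did not pass, with adjusted p = 0.20 and adjusted p = 0.076 by edgeR. *Vgll1* was at 0 in all libraries.

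Receptors and co-receptors of CCN proteins mostly did not pass the test. Of 12 listed and tested, 3 were higher and 0 were lower, or 25% past the threshold against 16.5% of all tested genes. The median of the list was at a log2 fold change of 0.07. *Itgb1*, the integrin β1 chain and the most abundant of them, measured 730, 712 and 738 CPM in L1L2-FF and 955, 1052 and 1113 CPM in L1L2-AKO (log2 fold change 0.52, adjusted p = 0.039, edgeR), and this call was lost in all 6 fits with 1 library left out. In those fits 1 of the 12 passed, except 2 without L1L2-FF replicate 2. The other 2 were *Itgam* (1.69) and *Itgb2* (1.02), the chains of the leukocyte integrin Mac-1, and the call of *Itgb2* held in 1 of 6 such fits. Macrophage markers rose with them: 11 of 12 were higher, and their summed level went from 278 to 536 CPM in L1L2-FF to 1003 to 1111 CPM in L1L2-AKO. *Itgam* is itself one of those 12 markers. The αv, β3 and β5 integrin genes *Itgav* (-0.16), *Itgb3* (-0.05) and *Itgb5* (-0.04) did not pass.

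TGFβ and BMP genes were counted because *Ccn2* is a TGFβ target and CCN proteins bind ligands of both kinds. Of 17 listed and tested, 11 were higher and 0 were lower, or 64.7% past the threshold against 16.5% of all tested genes. The list's median log2 fold change was 0.63. All 3 TGFβ ligand genes rose: *Tgfb3* from 14.9, 15.4 and 15.3 CPM to 42.3, 83.0 and 82.7 CPM (log2 fold change 2.19, adjusted p = 0.0014, edgeR), *Tgfb2* by 1.32 (adjusted p = 0.016) and *Tgfb1* by 0.63 (adjusted p = 0.017). The call of *Tgfb2* held in 3 of 6 fits with 1 library left out, and that of *Tgfb1* in 4. *Bmp4* rose by 6.39 (standard error 0.456, adjusted p = 3.0e-04, edgeR), *Bmp2* by 1.17 and the receptor gene *Tgfbr2* by 1.04. With 1 library left out the number past the threshold ran from 5 to 13, and it was 5 without L1L2-FF replicate 1, L1L2-AKO replicate 2 or L1L2-AKO replicate 3, 6 without L1L2-FF replicate 3.

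Wnt/β-catenin target genes were counted because *Ccn4* and *Ccn5* were named for induction by Wnt. Of 12 listed, 10 were tested, 2 were higher and 1 was lower, or 30% past the threshold against 16.5% of all tested genes. The median of the list was at a log2 fold change of 0.02. *Nkd1*, a feedback inhibitor of Wnt signalling, rose from 18.5, 18.5 and 28.8 CPM to 127, 98.6 and 158 CPM (log2 fold change 2.54, adjusted p = 6.6e-04, edgeR). *Wif1*, a secreted Wnt inhibitor, rose by 5.00 from at most 0.415 CPM to between 4.49 and 9.43 CPM, and *Apcdd1*, a membrane Wnt inhibitor, fell by 0.89. With 1 library left out, the call of *Apcdd1* held only without L1L2-AKO replicate 3. *Axin2*, the most widely used readout, had a log2 fold change of -0.24 and did not pass (adjusted p = 0.49, edgeR).

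The other matricellular genes moved in both directions or not at all. Of 15 listed, 13 were tested, 3 were higher and 1 was lower, or 30.8% past the threshold against 16.5% of all tested genes. The list's median log2 fold change was 0.11. The thrombospondin gene *Thbs1* rose from 243, 165 and 152 CPM to 1096, 2224 and 3214 CPM (log2 fold change 3.54, adjusted p = 0.0014, edgeR) and *Thbs2* from 137, 160 and 110 CPM to 290, 695 and 825 CPM (2.15). *Spp1*, which encodes osteopontin, rose by 2.59 but stayed at or under 3.67 CPM. *Smoc1* fell by 1.31, a call that was lost without L1L2-FF replicate 1 or 2 or L1L2-AKO replicate 1 or 2. *Sparc*, the most abundant of the list, did not pass (0.46), nor did *Postn* (-0.29) and *Tnc* (0.11), which encode periostin and tenascin-C.

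Immediate-early genes were counted because *Ccn1* is one. Of 17 immediate-early and stress genes, 0 were higher, 7 were lower and 10 did not pass. That is 41.2% past the threshold, against 16.5% of all tested genes. The median of the list was at a log2 fold change of -0.73, and the summed level was 5152 to 8628 CPM in L1L2-FF and 3474 to 3858 CPM in L1L2-AKO. *Egr2* (-1.83), *Ier2* (-1.67) and *Fosb* (-1.61) had the largest changes, and *Fos*, *Jun*, *Egr1* and *Atf3* were the other 4. The call of *Egr1*, the most abundant of the list, held in 1 of 6 fits with 1 library left out. *Egr2* is also counted in the list of Schwann cell markers. Without L1L2-FF replicate 3, 12 of the 17 immediate-early and stress genes were lower. *Ccn1*, with a log2 fold change of 0.59, had the opposite sign to the median of this list. In the plot of *Ccn1* levels by library, its L1L2-FF replicate 3 was the lowest of its group, and the summed level of the immediate-early genes was also lowest there.

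**Figure D5:**
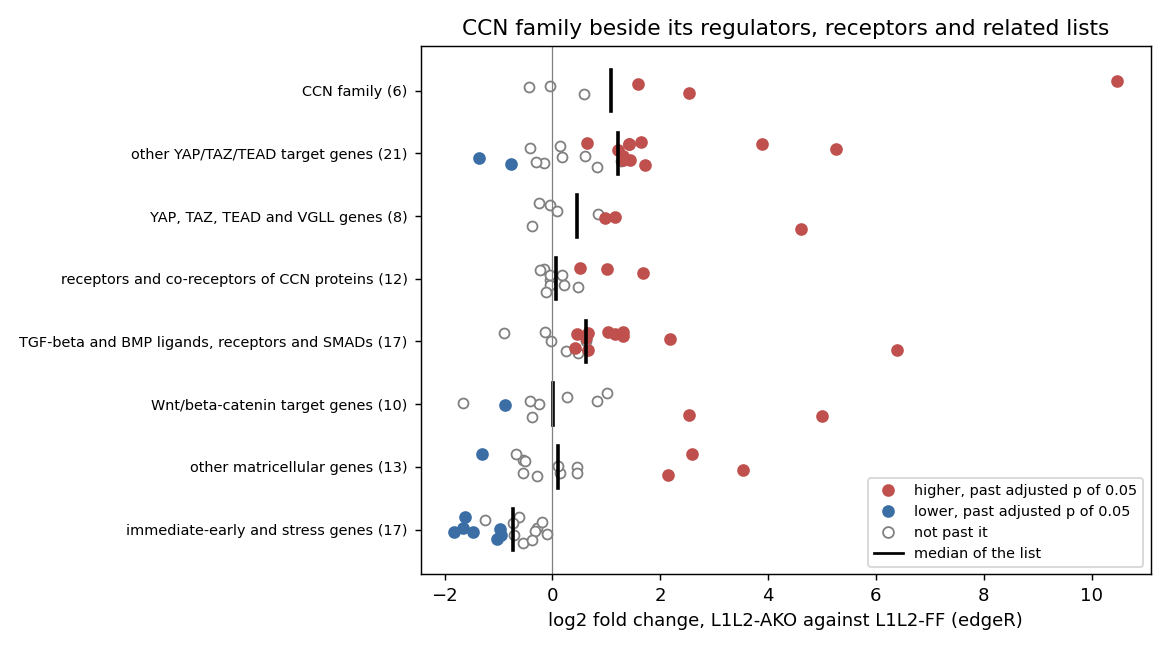
Log2 fold change of L1L2-AKO against L1L2-FF (x axis, edgeR) of the tested members of each gene list (y axis, number tested in parentheses). Filled points passed an adjusted p of 0.05 (red higher, blue lower), open points did not, and black bars mark list medians. *Ccn5* stands alone at 10.48, the immediate-early genes lie left of 0, and the receptors lie around 0.

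Markers of other cell types that floated preparations can hold were set beside the CCN levels. Of 12 mural cell and smooth muscle markers, 3 were higher and 3 lower, and the summed level overlapped (1148 to 1499 CPM in L1L2-FF, 1203 to 1470 CPM in L1L2-AKO). Of these, the contractile genes *Acta2* (log2 fold change 1.78, 63.1, 47.9 and 64.7 CPM against 135, 242 and 229 CPM) and *Tagln* (2.67, 22.2, 26.9 and 22.5 CPM against 57.5, 212 and 188 CPM) rose, while *Myh11* (0.04), *Cnn1* (-0.37) and *Des* (-0.62), also contractile or cytoskeletal genes, did not pass. *Notch3* (0.90) was the third that rose, and *Rgs5* (-1.22), *Cspg4* (-0.95) and *Higd1b* (-2.12) fell, whereas the pericyte receptor gene *Pdgfrb* (0.45) did not pass. Adipose progenitor markers had 1 higher and 3 lower of 12, with sums of 628 to 877 CPM and 575 to 688 CPM. Endothelial markers had 0 higher and 1 lower of 12, and Schwann cell markers had 1 higher and 5 lower of 10. The median log2 fold change of the Schwann cell list was -1.66, and its 1 higher gene was *Pmp22* (1.02). Of its 10 genes, 10 had an unadjusted p under 0.05, 10 passed DESeq2's test and 4 limma-voom's. Of 9 mesothelial markers, 3 were tested and 2 were higher, but their sum was 4.21 to 6.86 CPM in L1L2-FF and 4.62 to 6.42 CPM in L1L2-AKO, and *Msln* was at 0 in 5 of the 6 libraries. Of 8 tested skeletal muscle markers, 0 passed edgeR's test, 4 had an unadjusted p under 0.05, 3 passed DESeq2's and 1 limma-voom's, and their sum was 12.5 to 22.8 CPM in L1L2-FF and 4.03 to 11.1 CPM in L1L2-AKO. Of 7 red cell markers, 0 passed by any of these counts, with sums of 1522 to 2947 CPM and 1656 to 1801 CPM. Of 8 lymphocyte and neutrophil markers, 0 passed edgeR's test, 1 had an unadjusted p under 0.05, 1 passed DESeq2's and 0 limma-voom's, with sums of 16.8 to 35.6 CPM and 15.3 to 26.5 CPM. The part of these cell types in the CCN levels was not tested.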

How the data were processed

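RNA of floated P7 scWAT adipocytes was measured in 3 L1L2-FF and 3 L1L2-AKO libraries, grouped by the submitters' labels. The authors sequenced paired ends on a BGISEQ-500, aligned them to mm10 with HISAT2 2.1.0 and analysed them with StringTie 1.3.5. The authors deposited raw, whole-number counts for each gene symbol. The counting program, its strand setting and its annotation are not given in the sources used here. The table holds 37384 symbols, and 0 rows name no gene. Replicates of a group differed by more than sampling noise.

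In R 4.3.3, edgeR 4.0.16 (filterByExpr with the group, at least 10 counts in enough libraries and 15 in all, leaving 15674 genes; TMM; quasi-likelihood test, two-sided; Benjamini-Hochberg over all tested genes, threshold 0.05) compared the groups. The standard error was taken from the F statistic, as the size of the log2 estimate over the root of F. CPM are TMM-normalized, and CPM per kb divide by the union of exons in GENCODE M21, to which 36961 symbols were matched directly, 385 by synonym and 38 not. Pairs of coding sequences were aligned with Biopython's global pairwise aligner. The coding sequences of *Ccn1*, *Ccn2* and *Ccn5* were aligned together with mafft 7.526 to choose the printed stretch. Tables and plots used Python 3.11.15, pandas 2.3.3, Biopython 1.88 and matplotlib 3.10.9. The alternatives were other normalizations, other count filters, limma-voom (limma 3.58.1), DESeq2 1.42.0, edgeR's robust setting, a TPM scale, the longest transcript as length, other prior counts, a replicate block and each library left out.

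The CCN genes and the lists of related genes and markers were chosen with earlier results of these data known. Named genes are the 6 members, list genes led by up to 4 of largest change past the threshold or of a stated role, the 3 genes of highest r for each member and the 5 nearest to *Ccn5*, and *Lats1* and *Lats2*. Genes for r had a mean log2 CPM of at least 1, with a prior count of 2. Of the listed genes, 1 is not reported here.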

Additional observations from a re-analysis of the deposited data

How the results depend on the processing

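*Ccn4* and *Ccn5* were called in every fit that tested them. A minimum of 10 counts in every library left 4 members to test and dropped *Ccn5* and *Ccn6*. Changing the normalization, count filter, test or replicate block moved no other call among the members and gave 2413 to 3370 genes past the threshold, against 2580. With 1 library left out the number of genes ran from 1281 to 2845 (1281 and 1374 on omitting L1L2-AKO replicates 2 and 3, and 1290 on omitting L1L2-FF replicate 1), and the number of CCN genes from 2 to 4. The log2 fold changes then ran from 0.37 to 0.88 for *Ccn1*, 1.33 to 1.95 for *Ccn2*, 2.32 to 2.81 for *Ccn4* and 10.15 to 10.93 for *Ccn5*. *Ccn2* lost its call in 3 fits (1.51, 1.46 and 1.50) and *Ccn1* gained one without L1L2-AKO replicate 1 (0.88). *Ccn3* turned positive without L1L2-FF replicate 1 (0.016) or L1L2-AKO replicate 1 (0.067), in a range from -0.096 to 0.067, and *Ccn6* turned positive without L1L2-FF replicate 1 (0.257), in a range from -0.832 to 0.257. Fits with fewer libraries have fewer residual degrees of freedom, and the cause of each change was not tested. The lists ran from 5 to 13 genes past the threshold for TGFβ and BMP, 6 to 12 for immediate-early genes (12 without L1L2-FF replicate 3), 9 to 14 for other YAP/TAZ targets, and 1 to 2 for receptors. DESeq2's Wald test called 5 genes of the YAP, TAZ, TEAD and VGLL list, 4 higher and 1 lower, against 3. By longest transcript the *Ccn5* share in L1L2-FF was 0.066%, against 0.059%.

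The labels do not say whether replicate numbers pair the samples, and the libraries were treated as unpaired. Same-numbered libraries had correlations of 0.188, 0.255 and -0.0544 of their deviations from the group means. With the replicate block 2514 genes passed, the same 3 members were called and the log2 fold change was 0.52 for *Ccn1*, 1.62 for *Ccn2* and 10.34 for *Ccn5*. Not every library correlated best with its own number. Low counts limit *Ccn6* and the L1L2-FF level of *Ccn5*.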
